A study of Mus musculus with 12 samples.

Results

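Collagen chain genes were followed across lungs of FIZZ2 knockout and wild type mice given bleomycin or saline. The genes were those whose symbol in the array's probe annotation reads Col, a type number, the letter a and a chain number. There were 42 such genes among the 18194 genes tested, each read by its brightest probe set that is paired with 1 gene. By textbook structure they comprised 11 fibrillar chains, 9 network-forming chains, 5 beaded-filament chains, 9 fibril-associated chains (FACITs) and 8 others.

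Total RNA from PBS-perfused lungs of C57BL/6 mice was hybridised to Affymetrix arrays, with 1 array a sample. The 4 groups of 3 samples comprised FIZZ2 knockout mice 21 days after endotracheal bleomycin, FIZZ2 knockout mice 21 days after endotracheal saline, wild type mice 21 days after endotracheal bleomycin, and wild type mice 21 days after endotracheal saline. Bleomycin is a DNA-damaging drug whose instillation is a common mouse model of lung fibrosis, and FIZZ2 (resistin-like molecule beta) is a secreted protein encoded by Retnlb. The labels give no age, sex or dose, do not say in which cells or how the gene was inactivated, and do not say whether an array holds 1 animal or a pool. If the 3 arrays of a group came from 1 animal or 1 pool, the p-values below rest on technical spread only. If they hold separate pools, the p-values rest on the spread between pools and not between animals.

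Values are log2 intensities on which a difference of 1 is a doubling. The array medians were 5.58 to 5.68, and arrays of the same group correlated at 0.988 to 0.997 over all probe sets. Among 8 lung markers, Sftpc, Scgb1a1 and Ager averaged at least 13.7 in every group, as the tissue label requires. Means over the whole list were 11.31 to 11.95 on the bleomycin arrays. Retnlb itself read between 3.49 and 4.13 on all 12 arrays, so it was low in wild type lungs too and gives no check of the genotype labels. For 10 of the 42 chains all 4 group means lay under 5, a level below which 31.2% of all genes averaged and at which a change may be understated.

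A collagen molecule is a rope of 3 chains, each wound tightly around the others, and the chain genes are named by collagen type. Fibrillar collagens I, III and V pack into the banded fibrils that bear tension, while FACITs sit on the surface of those fibrils and link them to other matrix. Type IV chains form the sheet of basement membranes, on which alveolar epithelium and capillary endothelium rest, and type VI chains form beaded filaments close to cells. In lung, fibroblasts are a main source of fibrillar collagen, and scarring is known for its build-up. In extracts of a whole organ, fewer cells of a type and less RNA per cell cannot be told apart.

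Bleomycin array 1 of each genotype stood apart for the chains that rose in wild type lungs. Of the 21 chains that rose in wild type lungs, bleomycin array 1 of the knockout mice was the lowest of its group for 20, with a mean of 8.72 against 8.91 and 8.98 on the other two. Bleomycin array 1 of the wild type mice was the highest of its group for 20 of the 21, with a mean of 10.33 against 9.68 and 9.63. For these chains, picked through their wild type bleomycin values, both deviations widen the gap between genotypes. Over all 11 fibrillar chains array 1 was again lowest in knockout lungs, at 7.50 against 7.71 and 7.68. It was highest in wild type lungs, at 9.14 against 8.41 and 8.30. Over the 9 network chains it was neither (8.74 against 8.73 and 8.82, and 9.10 against 9.12 and 9.07). Calls of chains between genotypes after bleomycin, and of their differences between responses, are also given without these 2 arrays numbered 1. This holds for the brightest probe sets only. Other probe sets, the other collagen genes and the cell type markers are given with all arrays.

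**Figure D1:**
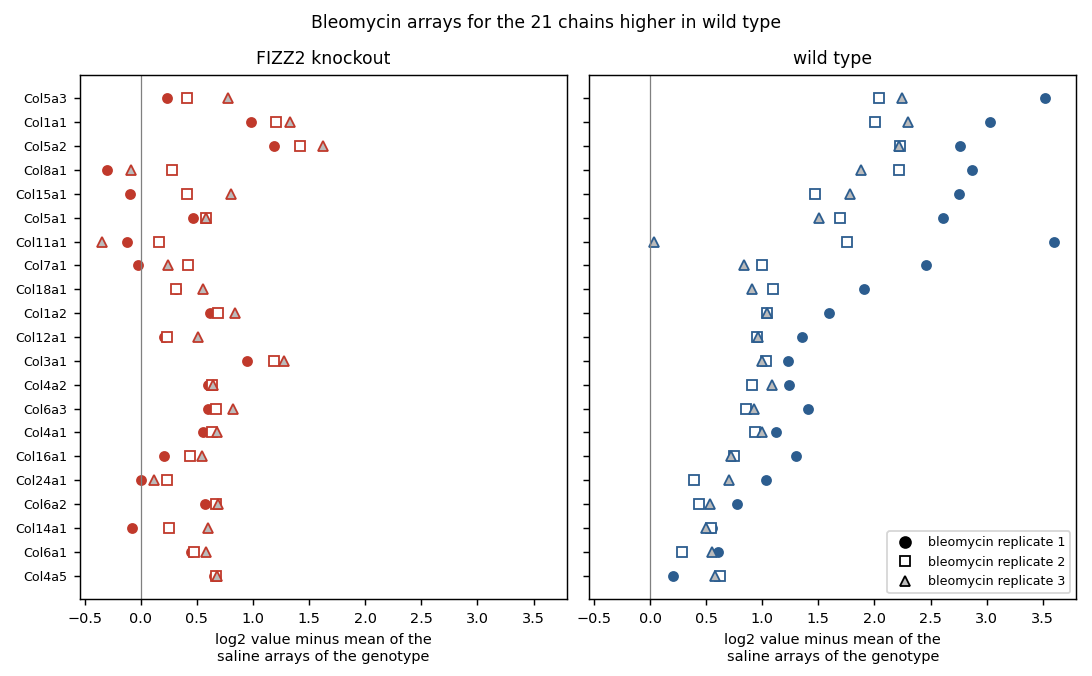
Each point is 1 bleomycin array, as its log2 value minus the mean of the saline arrays of the same genotype, for the 21 chains that rose in wild type lungs (knockout left, wild type right). Filled circles are replicate 1: the rightmost of its group for 20 of 21 chains in wild type lungs and the leftmost for 20 of 21 in knockout lungs.

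The first question was how far the chains respond to bleomycin in each genotype. In knockout lungs 10 of the 42 chains were higher after bleomycin than after saline and none was lower, where 1.98% and 1.29% of all genes tested were called higher and lower (limma, Benjamini-Hochberg adjusted p under 0.05 over all genes). In wild type lungs 21 of the 42 rose and 6 fell, where 13.3% and 14.4% of all genes were called. All 10 chains called in knockout lungs were among the 21 called in wild type lungs, of which they are 47.6%. The other 11 had knockout changes between -0.10 and 0.54 on the log2 scale, which did not pass. The median change over the 42 chains was 0.22 in knockout lungs and 0.38 in wild type lungs, beside 0.01 and -0.04 over all genes. Bleomycin and saline arrays did not overlap for 19 of the 42 chains in knockout lungs and 26 in wild type lungs. Over all 18194 genes the same held for 4904 in knockout lungs and 7272 in wild type lungs, so lack of overlap is common here.

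Fibrillar chains had the largest class median in wild type lungs. Of the 11, 4 rose in knockout lungs, with a class median of 0.48, and 8 rose in wild type lungs, with a median of 1.23. Of the 9 network chains, 3 rose in knockout lungs, while 4 rose and 2 fell in wild type lungs. Of the 5 beaded-filament chains, the same 3 rose in each genotype, with medians of 0.50 in knockout lungs and 0.48 in wild type lungs. No FACIT passed in knockout lungs, and 3 rose and 1 fell of 9 in wild type lungs. None of the 8 remaining chains passed in knockout lungs, and 3 rose and 3 fell in wild type lungs.

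**Figure D2:**
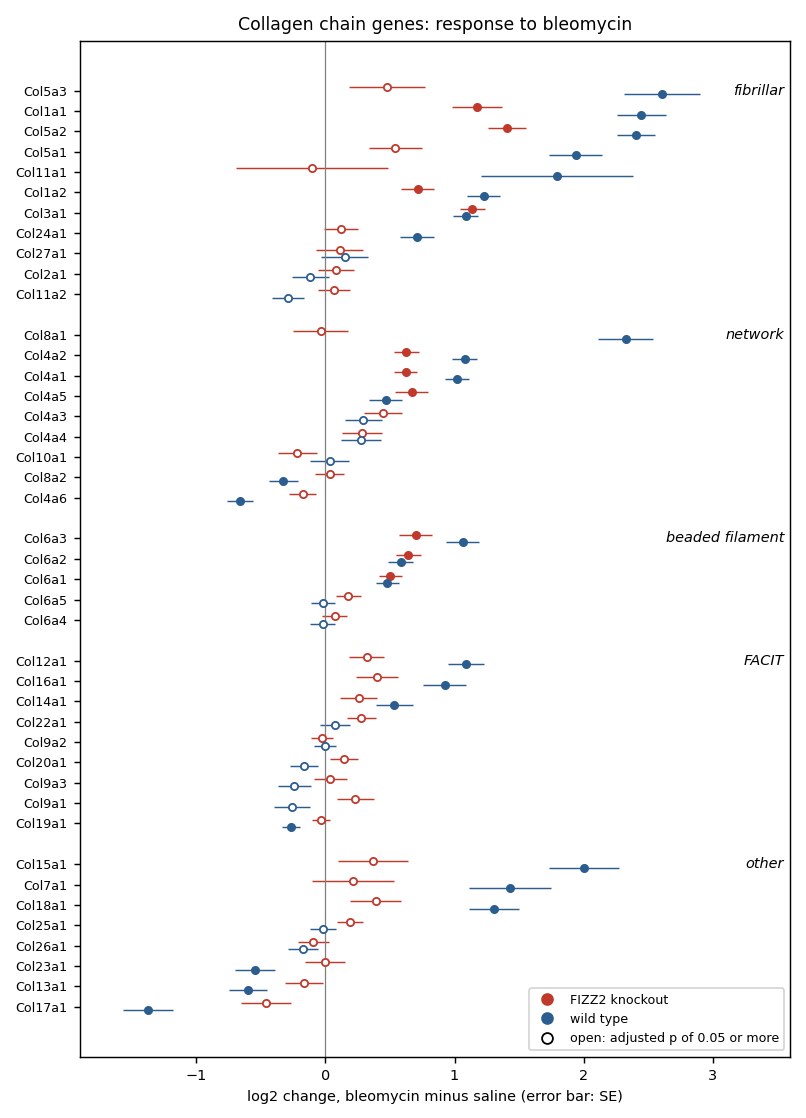
The log2 change between bleomycin and saline with its standard error is drawn for all 42 chains, grouped by structure, with knockout lungs in red above wild type lungs in blue, and filled points for an adjusted p under 0.05. In wild type lungs 21 chains lie to the right of 0 with filled points and 6 to the left, and in knockout lungs 10 lie to the right and none to the left.

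The promoters of 4 chains are shown as examples, picked by name among those whose window lies over no annotated gene. Col1a2, Col3a1 and Col6a1 rose in both genotypes, and Col8a1 rose in wild type lungs and responded less in knockout lungs. No chain that fell or passed nowhere is shown. Each run is the 150 bases before the RefSeq start site, 5′ to 3′ on the gene's strand, on build GRCm38.p6. Col1a2 lies at chr6:4505468-4505617 on the plus strand, Col3a1 at chr1:45311388-45311537 on the plus strand, Col6a1 at chr10:76726045-76726194 on the minus strand and Col8a1 at chr16:57754738-57754887 on the minus strand. Capitals mark matches, on either strand, to 4 short motifs. These were the box CCAAT, the TATA box in the form TATAA, the GC box in the form GGGCGG, and CAGAC, which holds the core letters that SMAD proteins recognise. In Col3a1 the capitals TTATAA are 1 match on each strand, overlapping.
Col1a2: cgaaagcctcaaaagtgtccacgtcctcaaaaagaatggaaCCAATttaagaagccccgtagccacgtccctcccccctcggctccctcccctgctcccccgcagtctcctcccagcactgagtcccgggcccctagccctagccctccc
Col3a1: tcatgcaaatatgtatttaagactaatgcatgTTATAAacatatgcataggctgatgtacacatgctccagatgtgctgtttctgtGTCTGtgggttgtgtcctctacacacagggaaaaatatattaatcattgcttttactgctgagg
Col6a1: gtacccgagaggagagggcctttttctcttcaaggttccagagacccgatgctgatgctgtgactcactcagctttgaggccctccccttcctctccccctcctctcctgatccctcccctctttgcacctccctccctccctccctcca
Col8a1: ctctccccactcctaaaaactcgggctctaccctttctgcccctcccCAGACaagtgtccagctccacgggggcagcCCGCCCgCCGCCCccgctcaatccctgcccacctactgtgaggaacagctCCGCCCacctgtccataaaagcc
Col1a2 held a CCAAT box starting 109 bases before its start site. Col8a1 held 3 GC boxes, at 73, 66 and 23 bases, and a CAGAC at 103 bases before the start, and Col6a1 held none of the motifs in this window. A promoter entry was at hand for 33 of the 42 chains, and 250 bases before the start were searched in each. A GC box was found in 60.6% of the 33, against 50.0% of the 14369 tested genes with an entry. The CCAAT box was found in 36.4% of the chains against 35.7% of genes, TATAA in 21.2% against 16.2%, and CAGAC in 36.4% against 41.6%. A match is a description of the letters only.

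For type I collagen, the main fibril of scar tissue, RNA of both chains rose in both genotypes. Col1a1, its larger-share chain, read 10.01, 10.23 and 10.35 in knockout bleomycin lungs, against 9.04, 9.08 and 8.95 in knockout saline lungs. In wild type lungs it read 12.46, 11.44 and 11.73 after bleomycin, against 9.36, 9.48 and 9.45 after saline. The groups did not overlap in either genotype, and the change was 2.25-fold in knockout lungs (log2 1.17 ± 0.19, SE, adjusted p = 0.00638) and 5.45-fold in wild type lungs (log2 2.45 ± 0.19, SE, adjusted p = 2.61e-06). The knockout response was the smaller by 1.27 on the log2 scale (knockout minus wild type -1.27 ± 0.27, SE, adjusted p = 0.0205). Its partner Col1a2 read 12.09, 12.15 and 12.31 in knockout bleomycin lungs, against 11.51, 11.50 and 11.39 in knockout saline lungs. Wild type bleomycin lungs gave 13.47, 12.93 and 12.92 for Col1a2, against 11.85, 11.90 and 11.89 in wild type saline lungs. It rose 1.64-fold in knockout lungs (adjusted p = 0.00967) and 2.34-fold in wild type lungs (adjusted p = 1.83e-05), and the difference between these responses did not pass (-0.51 ± 0.18, SE, adjusted p = 0.116).

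Col3a1, the single chain of type III collagen that accompanies type I in distensible tissue, rose in both genotypes. It read 12.73, 12.97 and 13.06 in knockout bleomycin lungs, against 11.85, 11.85 and 11.64 in knockout saline lungs. The wild type values were 13.56, 13.36 and 13.32 after bleomycin, against 12.32, 12.30 and 12.36 after saline. The change was 2.20-fold in knockout lungs (log2 1.14 ± 0.10, SE, adjusted p = 0.000147) and 2.12-fold in wild type lungs (log2 1.09 ± 0.10, SE, adjusted p = 6.89e-06), with a difference of 0.05 ± 0.14 (adjusted p = 0.868). The knockout level was lower than the wild type level both after bleomycin (log2 -0.49 ± 0.10, SE, adjusted p = 0.00511) and after saline (log2 -0.55 ± 0.10, SE, adjusted p = 0.0303). It was the 1 chain of 42 called between genotypes after saline, where 0.297% of all genes were called higher and 0.192% lower in knockout lungs. That call was lost when any 1 of the 6 saline arrays was left out (adjusted p 0.0802 to 0.137), and the call after bleomycin was lost without the 2 arrays that stood apart (log2 -0.33, adjusted p = 0.0698).

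Type V chains, which seed fibrils and set their width, gave some of the largest changes. Col5a1, part of the common type V molecule, read 8.61, 8.73 and 8.73 in knockout bleomycin lungs, against 8.16, 8.25 and 8.03 in knockout saline lungs. Its wild type arrays read 10.79, 9.87 and 9.68 after bleomycin, against 8.11, 8.26 and 8.15 after saline. It rose 3.83-fold in wild type lungs (log2 1.94 ± 0.21, SE, adjusted p = 2.15e-05), while the knockout change of 0.54 ± 0.21 did not pass (adjusted p = 0.179). That SE pools the spread of all 4 groups. The SD of Col5a1 was 0.59 in wild type bleomycin lungs, against 0.07 in knockout bleomycin lungs and 0.11 in knockout saline lungs. The knockout arrays of Col5a1 did not overlap, which held for 4904 of all 18194 genes. Col5a2 read 10.21, 10.44 and 10.65 in knockout bleomycin lungs, against 9.13, 8.98 and 8.98 in knockout saline lungs. Among wild type arrays Col5a2 read 12.37, 11.84 and 11.83 after bleomycin, against 9.46, 9.59 and 9.78 after saline. It had the largest knockout change among the brightest probe sets of the 42 chains, 2.65-fold (log2 1.41 ± 0.15, SE, adjusted p = 0.000420), and rose 5.29-fold in wild type lungs (log2 2.40 ± 0.15, SE, adjusted p = 4.92e-07). Col5a3, a less common partner, read 5.79, 5.97 and 6.33 in knockout bleomycin lungs, against 5.58, 5.68 and 5.40 in knockout saline lungs. In wild type lungs Col5a3 read 9.03, 7.55 and 7.76 after bleomycin, against 5.56, 5.71 and 5.26 after saline. Its wild type change of 6.08-fold was the largest among the brightest probe sets of the chains (log2 2.60 ± 0.29, SE, adjusted p = 3.44e-05), and its knockout change of 0.48 ± 0.29 did not pass (adjusted p = 0.432). The responses of all 3 type V chains differed between genotypes, by -1.40 for Col5a1, -1.0 for Col5a2 and -2.13 for Col5a3 (knockout minus wild type, log2, adjusted p = 0.0183, 0.0190 and 0.0135). Col3a1 and Col5a2 lie next to each other on chromosome 1, 24624 bases apart, and Col5a2 passed that test while Col3a1 did not, a contrast between the 2 genes that was not itself tested.

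Of the remaining 5 fibrillar chains, Col11a1 and Col24a1 were called higher in wild type lungs and 3 passed in no comparison. Col11a1, a type XI chain found mostly in cartilage, read 3.35, 3.63 and 3.13 in knockout bleomycin lungs, against 3.35, 3.67 and 3.39 in knockout saline lungs. Wild type bleomycin lungs gave 7.01, 5.16 and 3.44, against 3.40, 3.25 and 3.56 in wild type saline lungs. The 3 wild type bleomycin arrays spanned over 3 log2 units and the third lay within the saline range, and the call (log2 1.80 ± 0.59, SE, adjusted p = 0.0369) was lost in 10 of the alternatives run, among them without array 1 (log2 0.89). Col24a1, a minor fibrillar chain, read 2.79, 3.02 and 2.90 in knockout bleomycin lungs, against 2.80, 2.68 and 2.87 in knockout saline lungs. Col24a1 had wild type values of 3.89, 3.25 and 3.56 after bleomycin, against 2.91, 2.78 and 2.89 after saline, and was called higher (log2 0.71 ± 0.13, SE, adjusted p = 0.00137). It is 1 of the 10 dim chains, with group means of 2.79 to 3.57. Col2a1, the chain of cartilage fibrils, Col11a2 and Col27a1 passed in no comparison, with group means of 5.13 to 5.28, 3.99 to 4.33 and 7.84 to 8.18.

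Of the 6 type IV chains, 3 rose in both genotypes. Col4a1 and Col4a2 form the type IV molecule found in nearly all basement membranes, and their genes overlap head to head on chromosome 8. Col4a1 read 12.38, 12.47 and 12.51 in knockout bleomycin lungs, against 11.77, 11.79 and 11.94 in knockout saline lungs. Its wild type arrays read 13.32, 13.14 and 13.20 after bleomycin, against 12.04, 12.34 and 12.23 after saline. Col4a2 read 11.77, 11.81 and 11.81 in knockout bleomycin lungs, against 11.12, 11.09 and 11.30 in knockout saline lungs. In knockout lungs both chains lay higher after bleomycin with no overlap of arrays. Among wild type arrays Col4a2 read 12.65, 12.31 and 12.49 after bleomycin, against 11.34, 11.33 and 11.55 after saline, again without overlap. The log2 change in knockout lungs was 0.62 ± 0.09 for Col4a1 and 0.63 ± 0.10 for Col4a2 (adjusted p = 0.00367 and 0.00526). The log2 change in wild type lungs was 1.02 ± 0.09 for Col4a1 and 1.08 ± 0.10 for Col4a2 (adjusted p = 5.79e-06 and 6.57e-06).

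Col4a3, Col4a4 and Col4a5 form the type IV molecule of alveolar and glomerular basement membranes. Of the 3, Col4a5 rose in knockout lungs (log2 0.67 ± 0.13, SE, adjusted p = 0.0139) and in wild type lungs (log2 0.47 ± 0.13, SE, adjusted p = 0.0144), and each of these calls was lost in 3 or 4 alternatives. Col4a3 and Col4a4 did not pass in either genotype: their knockout changes were 0.44 ± 0.15 and 0.28 ± 0.15, and their wild type changes 0.29 ± 0.15 and 0.28 ± 0.15. In each of Col4a3, Col4a4, Col4a5 and Col4a6 the wild type bleomycin array 1 was the lowest of its group, the reverse of its place for most fibrillar chains. Col4a6 read 7.10, 6.91 and 7.11 in knockout bleomycin lungs, against 7.19, 7.32 and 7.14 in knockout saline lungs. In wild type lungs it read 6.51, 6.84 and 6.76 after bleomycin, against 7.42, 7.44 and 7.24 after saline. It fell in wild type lungs (log2 -0.66 ± 0.10, SE, adjusted p = 0.000361), and its knockout change did not pass (log2 -0.18 ± 0.10, SE, adjusted p = 0.397). Its bleomycin arrays lay below its saline arrays in both genotypes. Col4a5 and Col4a6 lie head to head on the X chromosome, 1274 bases apart, and their wild type changes had opposite signs. A second Col4a6 probe set of like brightness had a wild type log2 change of -0.01 ± 0.20 (SE, adjusted p = 0.984), so the fall rests on 1 of its 2 probe sets.

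**Figure D3:**
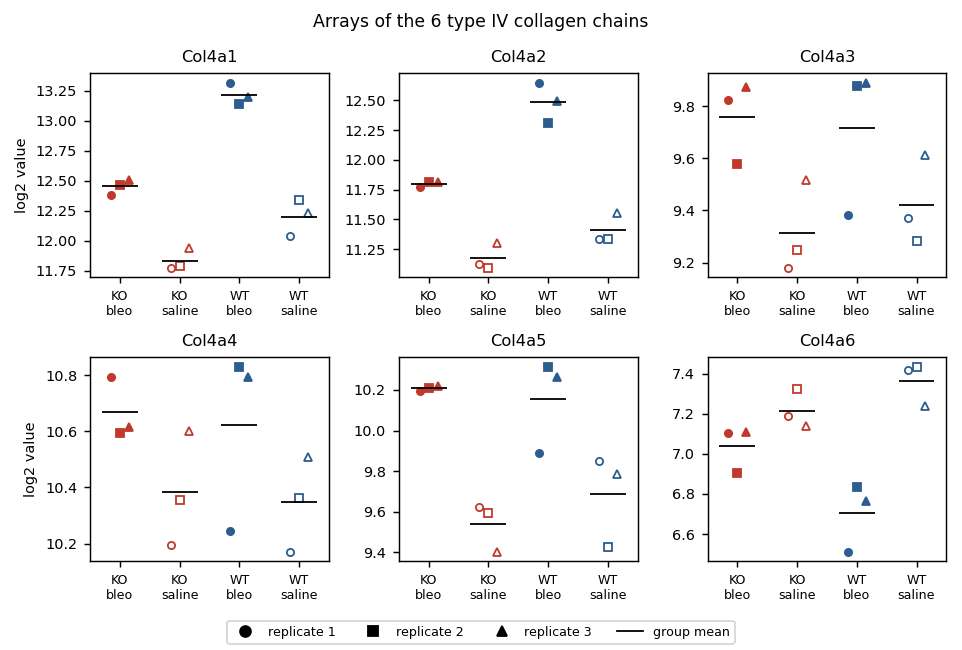
The log2 value of each array is drawn for the 6 type IV chains, with knockout (KO) groups in red left of wild type (WT) groups in blue, filled symbols for bleomycin (bleo) and bars for group means. Bleomycin arrays lie above saline arrays in both genotypes for Col4a1, Col4a2 and Col4a5. For Col4a6 they lie below them in both genotypes, by less in knockout lungs, where the change did not pass.

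Col8a1, a short network chain made by vascular and other mesenchymal cells, had the largest difference between genotypes in response among the brightest probe sets of the 42 chains. It read 7.01, 7.60 and 7.23 in knockout bleomycin lungs, against 7.23, 7.4 and 7.31 in knockout saline lungs, and these arrays overlapped. Wild type bleomycin lungs gave 9.98, 9.33 and 9.0, against 7.13, 7.32 and 6.88 in wild type saline lungs, with no overlap. The change was -0.04 ± 0.21 in knockout lungs (adjusted p = 0.954) and 5.01-fold in wild type lungs (log2 2.32 ± 0.21, SE, adjusted p = 6.62e-06), and the knockout minus wild type difference was -2.36 ± 0.30, SE, adjusted p = 0.00225. Each of its 3 probe sets passed that test of the difference, with values of -2.36, -2.18 and -1.10. Its partner Col8a2 fell slightly in wild type lungs (log2 -0.32 ± 0.11, SE, adjusted p = 0.0458), with overlapping arrays, and 12 alternatives lost that call. Col10a1, the chain of growth-plate cartilage, averaged 3.53 to 3.75 in the 4 groups and passed nowhere.

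Col6a1, Col6a2 and Col6a3, which build the common type VI molecule, rose in both genotypes. Col6a3, the largest of them, read 10.92, 11.00 and 11.15 in knockout bleomycin lungs, against 10.29, 10.31 and 10.38 in knockout saline lungs. The wild type values were 11.97, 11.41 and 11.48 after bleomycin, against 10.64, 10.59 and 10.44 after saline. Its log2 change was 0.70 ± 0.13 in knockout lungs (adjusted p = 0.0110) and 1.06 ± 0.13 in wild type lungs (adjusted p = 5.19e-05). Col6a1 rose by 0.50 ± 0.09 in knockout lungs and by 0.48 ± 0.09 in wild type lungs (adjusted p = 0.0108 and 0.00157). Col6a2, its neighbour on chromosome 10, rose by 0.64 ± 0.10 in knockout lungs and by 0.58 ± 0.10 in wild type lungs (adjusted p = 0.00385 and 0.000591). The knockout minus wild type differences were -0.36 ± 0.18 for Col6a3, 0.02 ± 0.13 for Col6a1 and 0.06 ± 0.13 for Col6a2, and none passed (adjusted p = 0.257, 0.938 and 0.842). Col6a4 and Col6a5 were dim, with group means of 2.96 to 4.48, and passed nowhere.

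Among the 9 FACITs, Col12a1, Col14a1 and Col16a1 rose in wild type lungs. Col12a1, which binds type I fibrils, read 7.29, 7.31 and 7.59 in knockout bleomycin lungs, against 7.26, 6.96 and 7.02 in knockout saline lungs. Its wild type arrays read 8.35, 7.95 and 7.96 after bleomycin, against 7.24, 6.90 and 6.86 after saline. It rose 2.13-fold in wild type lungs (log2 1.09 ± 0.14, SE, adjusted p = 8.74e-05), its knockout change was 0.32 ± 0.14 (adjusted p = 0.242), and the responses differed by -0.77 (adjusted p = 0.0416), a call lost in 14 alternatives. Col16a1 read 7.72, 7.96 and 8.07 in knockout bleomycin lungs, against 7.47, 7.45 and 7.64 in knockout saline lungs. Among wild type arrays Col16a1 read 9.04, 8.49 and 8.46 after bleomycin, against 7.75, 8.01 and 7.46 after saline, and rose (log2 0.92 ± 0.16, SE, adjusted p = 0.00101). Col14a1, a regulator of fibril growth, read 8.19, 8.52 and 8.87 in knockout bleomycin lungs, against 8.23, 8.46 and 8.13 in knockout saline lungs, with overlap. In wild type lungs Col14a1 read 9.02, 9.02 and 8.97 after bleomycin, against 8.44, 8.36 and 8.62 after saline, without overlap (log2 0.53 ± 0.14, SE, adjusted p = 0.0140). Col19a1 was called lower in wild type lungs (log2 -0.26 ± 0.07, SE, adjusted p = 0.0143) at group means of 3.26 to 3.52, and the other 5 (Col9a1, Col9a2, Col9a3, Col20a1 and Col22a1) had group means of 3.28 to 5.58 and passed nowhere.

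Of the chains outside these classes, Col15a1, Col18a1 and Col7a1 rose in wild type lungs. Types XV and XVIII are basement membrane collagens that carry sugar chains. Col15a1 read 6.04, 6.55 and 6.94 in knockout bleomycin lungs, against 6.10, 6.08 and 6.23 in knockout saline lungs. Wild type bleomycin lungs gave 8.83, 7.55 and 7.86, against 6.03, 6.21 and 6.00 in wild type saline lungs. It rose 4.01-fold in wild type lungs (log2 2.0 ± 0.27, SE, adjusted p = 0.000139), and the knockout response, 0.37 ± 0.27, differed from it by -1.63 (adjusted p = 0.0312). Col18a1, the source of the fragment endostatin, read 8.43, 8.43 and 8.67 in knockout bleomycin lungs, against 7.99, 8.16 and 8.19 in knockout saline lungs. Col18a1 had wild type values of 10.20, 9.39 and 9.20 after bleomycin, against 8.23, 8.48 and 8.17 after saline. Its wild type rise (log2 1.31 ± 0.20, SE, adjusted p = 0.000321) passed and the difference between responses did not (-0.91 ± 0.28, SE, adjusted p = 0.0771). Col7a1, the chain of anchoring fibrils under stratified epithelium, read 5.96, 6.41 and 6.24 in knockout bleomycin lungs, against 6.08, 5.86 and 6.04 in knockout saline lungs. The Col7a1 wild type arrays read 8.57, 7.10 and 6.94 after bleomycin, against 6.03, 6.38 and 5.90 after saline. Array 1 alone lay more than 1 log2 unit above the other two, and the wild type change was 1.43 ± 0.32 with it (adjusted p = 0.00444) and 0.92 without the 2 arrays that stood apart (adjusted p = 0.000611).

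All 3 chains that fell in this group, Col17a1, Col13a1 and Col23a1, are membrane-spanning collagens. Col17a1, part of the junction that ties basal epithelial cells to their basement membrane, read 4.91, 4.26 and 4.12 in knockout bleomycin lungs, against 4.67, 4.75 and 5.24 in knockout saline lungs. Among wild type arrays it read 3.56, 3.58 and 3.71 after bleomycin, against 4.76, 5.08 and 5.12 after saline. It fell by 1.37 on the log2 scale in wild type lungs (-1.37 ± 0.19, SE, adjusted p = 0.000187) from a dim level, and its knockout change did not pass (-0.46 ± 0.19, SE, adjusted p = 0.226). Col13a1 fell in wild type lungs (log2 -0.60 ± 0.15, SE, adjusted p = 0.00830), as did Col23a1 (log2 -0.55 ± 0.15, SE, adjusted p = 0.0173). Col25a1, the other membrane-spanning member, had a wild type change of -0.02 ± 0.10 and passed nowhere, nor did Col26a1, and their group means were 3.81 to 5.50.

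The question behind the genotypes was whether the response to bleomycin depends on FIZZ2. By the test of that difference, 7 of the 42 chains responded less in knockout lungs (Col1a1, Col5a1, Col5a2, Col5a3, Col8a1, Col12a1 and Col15a1) and none more, where 3% and 2.03% of all genes passed in these directions. They were 4 fibrillar chains, 1 network chain, 1 FACIT and 1 other. Without the 2 bleomycin arrays that stood apart, 6 of the 7 passed, with smaller differences of -0.89 for Col1a1, -1.02 for Col5a1, -0.71 for Col5a2, -1.55 for Col5a3, -1.96 for Col8a1 and -1.02 for Col15a1. Col12a1 did not pass without them (-0.58, adjusted p = 0.153). The count was 2 to 9 with 1 array left out at a time, with 2 called without knockout bleomycin array 1, 3 without knockout saline array 1 and 4 without knockout saline array 2. Apart from the 2-fold minimum, the call was lost in 14 alternatives for Col12a1, 9 for Col15a1, 4 for Col1a1, 3 for Col5a2 and 1 for Col5a1. Only Col5a3 and Col8a1 passed under every alternative run except a 2-fold minimum, which both also met.

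**Figure D4:**
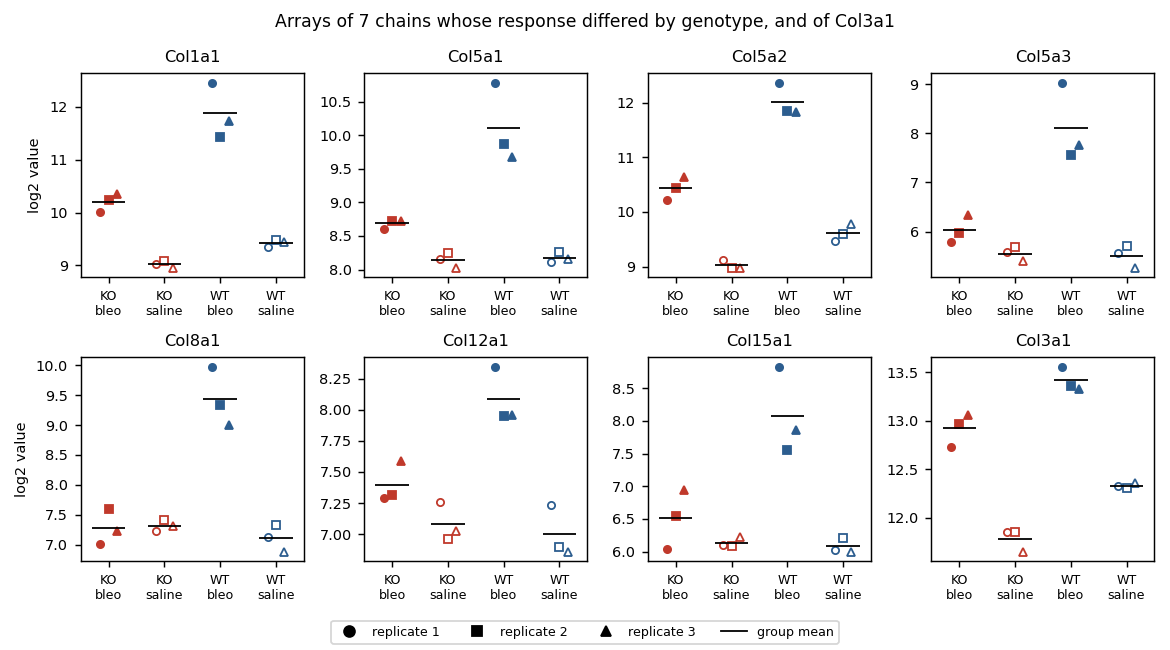
The log2 value of each array is drawn for the 7 chains whose response differed by genotype and for Col3a1, with knockout (KO) groups in red left of wild type (WT) groups in blue, filled symbols for bleomycin (bleo) and bars for group means. For Col8a1 the knockout bleomycin and saline arrays overlap near 7, while wild type bleomycin arrays lie at 9.0 to 9.98, and for Col3a1 both genotypes shift by about the same amount.

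After bleomycin, knockout lungs had lower levels of 17 of the 42 chains and higher levels of 2 than wild type lungs, where 7.89% and 7.52% of all genes were called lower and higher. The 17 comprised 7 fibrillar chains, 3 network chains, 1 beaded-filament chain, 3 FACITs and 3 others. Col8a1 was lowest relative to wild type (log2 -2.16 ± 0.21, SE, adjusted p = 5.28e-05), then Col5a3 (log2 -2.08 ± 0.29, SE, adjusted p = 0.000570), Col1a1 (log2 -1.68 ± 0.19, SE, adjusted p = 0.000145) and Col5a2 (log2 -1.58 ± 0.15, SE, adjusted p = 3.93e-05). The others were Col15a1, Col5a1, Col7a1, Col18a1, Col1a2, Col4a1, Col16a1, Col4a2, Col12a1, Col24a1, Col6a3, Col3a1 and Col14a1, with log2 differences between -1.57 and -0.47. The 2 higher in knockout lungs, Col17a1 (log2 0.81 ± 0.19, SE, adjusted p = 0.0127) and Col4a6 (log2 0.33 ± 0.10, SE, adjusted p = 0.0411), were chains that fell in wild type lungs. The calls of Col14a1 and Col4a6 were lost in 14 and 13 alternatives. Without the 2 arrays that stood apart, 13 chains were called, all lower, and Col3a1, Col12a1, Col14a1, Col16a1, Col17a1 and Col4a6 did not pass. In the same comparison 3 of 6 smooth muscle and contractile markers were lower in knockout lungs, 3 of 6 macrophage markers were lower, 3 of 8 endothelial markers were higher, and of 10 fibroblast markers 3 were higher and 2 lower.

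Several chains had more than 1 probe set, and the brightest did not always give the largest change. For Col1a2 the brightest had a wild type change of 1.23 and the next brightest 2.80 ± 0.20 (SE), with knockout changes of 0.71 for the brightest and 1.51 ± 0.20 for the next. That second Col1a2 probe set passed the test of the difference between responses (-1.29 ± 0.28, adjusted p = 0.0372), which the brightest did not. Averaged over all 3 Col1a2 probe sets, the knockout change was 0.78 and did not pass (adjusted p = 0.052 over genes). The second Col3a1 probe set had changes of 2.06 ± 0.18 in knockout lungs and 2.62 ± 0.18 in wild type lungs, and the difference of -0.57 ± 0.26 did not pass (adjusted p = 0.279). The second Col1a1 probe set rose in both genotypes, but its difference between responses did not pass (-0.66 ± 0.34, adjusted p = 0.339). The second Col18a1 probe set passed that test (-1.15 ± 0.27, adjusted p = 0.0485). The second Col5a3 probe set was dim, at a mean of 3.27, and did not move in wild type lungs beyond its error (0.01 ± 0.12). Apart from that of the Col1a2 average, these p-values were adjusted over all probe sets that are paired with 1 gene.

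**Figure D5:**
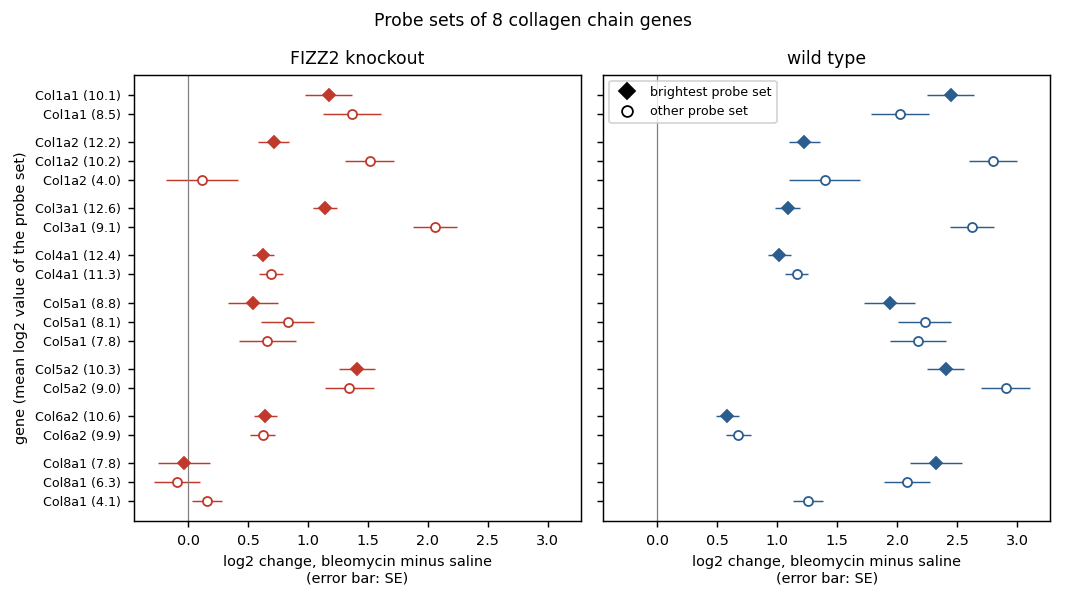
The log2 change between bleomycin and saline with its standard error is drawn for each probe set of 8 chains, knockout lungs left and wild type lungs right, with the mean log2 value of the probe set in brackets. The second probe sets of Col1a2 and Col3a1 give about 2 times the log2 change of the brightest in both panels, while those of Col8a1 stay near 0 in knockout lungs.

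Collagen chains are modified, cleaved, crosslinked and degraded by other genes, 48 of which were measured from a list of 53. Of the 48, 8 rose and 1 fell in knockout lungs, and 27 rose and 4 fell in wild type lungs. Over all genes the shares called were 1.98% higher and 1.29% lower in knockout lungs, and 13.3% higher and 14.4% lower in wild type lungs. With 6 propeptide cleavage genes and 8 receptors measured, the 1 and 2 that rose in wild type lungs lie near the share over all genes. Among 17 genes of intracellular processing, 9 rose and 2 fell in wild type lungs: P4ha3, a prolyl hydroxylase subunit, changed by 0.32 ± 0.12 (adjusted p = 0.190) in knockout lungs and 1.35 ± 0.12 (adjusted p = 6.60e-06) in wild type lungs. Colgalt1, which adds galactose to collagen, changed by 0.28 ± 0.08 (adjusted p = 0.0916) in knockout lungs and 0.71 ± 0.08 (adjusted p = 5.06e-05) in wild type lungs, while its paralog Colgalt2 fell in wild type lungs (-1.14 ± 0.14, adjusted p = 6.65e-05), as did the prolyl 3-hydroxylase P3h2 (-0.46 ± 0.14, adjusted p = 0.0236). Of 6 genes of propeptide cleavage, the protease Bmp1 rose (0.86 ± 0.13, adjusted p = 0.000321) and the enhancer Pcolce2 fell (-1.91 ± 0.17, adjusted p = 5.63e-06) in wild type lungs, and neither passed in knockout lungs (0.34 ± 0.13, adjusted p = 0.185 and -0.24 ± 0.17, adjusted p = 0.497).

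All 4 measured of 5 listed lysyl oxidase genes, which crosslink collagen, rose in wild type lungs, and 1 rose in knockout lungs. Lox changed by 0.77 ± 0.21 (adjusted p = 0.0704) in knockout lungs and 2.22 ± 0.21 (adjusted p = 1.02e-05) in wild type lungs, and its responses differed (-1.45 ± 0.30, adjusted p = 0.0181), whereas Loxl1 rose by 0.58 ± 0.12 (adjusted p = 0.0202) in knockout lungs and 0.87 ± 0.12 (adjusted p = 0.000155) in wild type lungs. Of 7 genes of collagen cleavage and uptake, 6 rose and Mmp9 fell in wild type lungs (-0.80 ± 0.14, adjusted p = 0.000843). The protease Ctsk rose in both genotypes (1.59 ± 0.18, adjusted p = 0.000601 in knockout lungs and 2.31 ± 0.18, adjusted p = 2.50e-06 in wild type lungs). The collagenase Mmp13 did not pass in knockout lungs (0.61 ± 0.20, adjusted p = 0.129) and rose in wild type lungs (2.50 ± 0.20, adjusted p = 2.93e-06). Of 8 collagen receptors, Lair1 (1.04 ± 0.13, adjusted p = 7.27e-05) and Itgb1 (0.75 ± 0.19, adjusted p = 0.0115) rose in wild type lungs and none passed in knockout lungs. Of 6 fibril regulators, 2 rose in knockout lungs and 5 in wild type lungs, led by fibronectin, Fn1 (0.78 ± 0.13, adjusted p = 0.00677 in knockout lungs and 2.13 ± 0.13, adjusted p = 4.61e-07 in wild type lungs). Values here and for the processing genes are log2 changes ± SE with adjusted p.

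Marker lists of cell types that the lung samples could hold were counted in the same comparisons, where 1.98% of all genes were called higher and 1.29% lower in knockout lungs, and 13.3% higher and 14.4% lower in wild type lungs. Of 10 fibroblast markers, 2 rose and none fell in knockout lungs, and 4 rose and 3 fell in wild type lungs. The array means, each over the markers of a list, spanned 9.78 to 9.98 in knockout bleomycin lungs, 9.76 to 10.01 in knockout saline lungs, 10.01 to 10.21 in wild type bleomycin lungs and 9.67 to 9.90 in wild type saline lungs. Of 6 smooth muscle and contractile markers, 2 fell in knockout lungs and none passed in wild type lungs, and their array means spanned 8.96 to 9.22 in knockout bleomycin lungs, 9.43 to 10.08 in knockout saline lungs, 9.49 to 10.07 in wild type bleomycin lungs and 9.49 to 9.88 in wild type saline lungs. Of 8 endothelial markers, 2 fell in knockout lungs and 4 in wild type lungs, with array means of 10.65 to 10.96 in knockout bleomycin lungs, 10.92 to 11.01 in knockout saline lungs, 10.60 to 10.66 in wild type bleomycin lungs and 10.85 to 11.02 in wild type saline lungs. Of 6 alveolar type 1 markers, whose cells lie on the type IV sheet, none passed in knockout lungs and 1 rose and 1 fell in wild type lungs, with array means of 11.69 to 11.85 in knockout bleomycin lungs, 11.69 to 11.81 in knockout saline lungs, 11.28 to 11.81 in wild type bleomycin lungs and 11.74 to 11.78 in wild type saline lungs. Of 5 basal epithelial markers none passed in knockout lungs and Krt14 rose in wild type lungs, with array means of 4.16 to 4.41 in knockout bleomycin lungs, 3.96 to 4.52 in knockout saline lungs, 4.36 to 4.86 in wild type bleomycin lungs and 4.19 to 4.52 in wild type saline lungs, a dim range. Of 6 macrophage markers, 5 rose in knockout lungs and 5 in wild type lungs, with array means of 8.36 to 8.67 in knockout bleomycin lungs, 7.34 to 7.43 in knockout saline lungs, 9.0 to 9.35 in wild type bleomycin lungs and 7.06 to 7.48 in wild type saline lungs. Of 9 cartilage markers none rose in wild type lungs and 1 fell, with array means of 4.16 to 4.20 in knockout bleomycin lungs, 4.20 to 4.58 in knockout saline lungs, 4.06 to 4.21 in wild type bleomycin lungs and 4.19 to 4.42 in wild type saline lungs. Of 6 cardiac muscle markers, none fell in knockout lungs and all 6 in wild type lungs, with array means of 7.67 to 10.11 in knockout bleomycin lungs, 9.81 to 10.53 in knockout saline lungs, 7.72 to 8.57 in wild type bleomycin lungs and 9.75 to 10.42 in wild type saline lungs. Of 8 lung markers none rose and 3 fell in wild type lungs. Of 6 mesothelial markers 1 rose, of 4 adipocyte markers 1 fell and of 3 nerve and Schwann cell markers 1 fell in wild type lungs. None of these 4 lists held a marker that passed in knockout lungs. The part of these cell types in the changes of the chains was not tested.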

How the data were processed

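The deposited table holds log2 expression values for 45101 probe sets on 12 Affymetrix arrays. Per the submitters' processing notes the authors used affy, RMA and limma, and versions are not given in the sources used here. RMA subtracts background and equalises array distributions, so each value is relative to its array, and weak probe sets are compressed towards background. No raw intensities were used. The probe annotation pairs 34958 probe sets with 1 gene, 932 with several and 9211 with none, and only the first were used. The probe set with the highest mean was taken for each of 18194 genes. Group means were fitted to all genes with limma 3.58.1 in R 4.3.3 (lmFit and eBayes), with 8 degrees of freedom left among arrays. Each SE pools the spread of all 4 groups, so wild type arrays that lie far apart also widen the SE of knockout changes. Tested were the response to bleomycin in each genotype, the genotypes within each treatment, and the difference between responses, each with Benjamini-Hochberg adjustment over all genes and a threshold of 0.05, and the method was tested on simulated data. The number of arrays limits the precision.

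Groups came from the labels. The replicate numbers were not treated as pairs. Correlations of deviations between arrays with the same number ran from -0.297 to 0.203. They were not set against arrays with different numbers, so a pairing or shared batch was not excluded. No 2 arrays held identical values. The members and all lists were chosen with earlier results of these data known. Values on each array are given for chains that passed in wild type lungs with a log2 change of at least 1, or in the difference between responses, or between genotypes. Other chains that passed have the change, SE and adjusted p, and chains that passed nowhere have their range of group means, with the change where a chain of the same type passed. From the other collagen genes, each role is shown by up to 2 genes with the smallest p in wild type lungs and by processing or crosslinking genes that fell. Promoter sequences are from RefSeq on GRCm38.p6. Figures were drawn with matplotlib 3.10.9. Alternatives tried were a filter on low values, both scalings, a trended robust variance, the mean of or all probe sets of a gene, only the groups compared, array weights, a 2-fold minimum, the replicate block and each array left out. Counts of alternatives that lost a call do not include the 2-fold minimum. Leaving out both bleomycin arrays numbered 1 was chosen after seeing the data.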

Additional observations from a re-analysis of the deposited data

Results flagged for a closer look

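Chains whose response to bleomycin differed between genotypes by the test of the difference itself are listed here as knockout minus wild type log2 changes. Col8a1 differed by -2.36 ± 0.30 (SE), with a knockout response of -0.04 and a wild type response of 2.32. Col5a3 differed by -2.13 ± 0.41, with 0.48 in knockout lungs and 2.60 in wild type lungs. Col15a1 differed by -1.63 ± 0.38, Col5a1 by -1.40 ± 0.29 and Col1a1 by -1.27 ± 0.27. Col5a2 differed by -1.0 ± 0.21 although it rose in both genotypes. Col12a1 differed by -0.77 ± 0.20. Without the bleomycin arrays numbered 1 the differences were smaller for all 7, from -1.96 for Col8a1 to -0.58 for Col12a1. With 3 arrays in a group, no test for single outlying arrays was made.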

How the results depend on the processing

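Arrays numbered alike were not treated as pairs in the main fit. With the replicate block 26 chains passed in the wild type response, 10 in the knockout response, 6 in the difference between responses, 17 between genotypes after bleomycin and 0 after saline. With 1 array left out at a time these counts ran from 22 to 29, 9 to 11, 2 to 9, 16 to 20 and 0 to 3, in the same order. A 2-fold minimum left 16, 3, 5, 8 and 0. Array weights gave 12 chains in the difference between responses, 3 of them with a larger knockout response, and 6 after saline. After saline the mean of all probe sets, only the groups compared, and all probe sets each gave 0, and leaving out both bleomycin arrays numbered 1 gave 3. Class medians in wild type lungs moved without genes that averaged under 5 over all arrays to 1.58 (fibrillar), 0.38 (network), 0.58 (beaded filament), 0.18 (FACIT) and 0.64 (other), and the network median was 0.50 over all or averaged probe sets, 0.42 with array weights and 0.47 without both bleomycin arrays numbered 1. In knockout lungs the network median was 0.36 without genes under that average and 0.22 without those 2 arrays, the beaded-filament median 0.64 without genes under that average, and the FACIT median 0.075 for averaged and 0.077 for all probe sets.
Without 1 array at a time the class medians ran from 1.01 to 1.32 (fibrillar), 0.21 to 0.47 (network), 0.42 to 0.58 (beaded filament), -0.077 to 0.035 (FACIT) and -0.12 to -0.066 (other) in wild type lungs. In knockout lungs they ran from 0.33 to 0.58, 0.19 to 0.39, 0.46 to 0.54, 0.096 to 0.26 and 0.019 to 0.14.
No called change reversed its direction in any alternative run. Apart from the 2-fold minimum, 20 of the 27 wild type calls passed under every alternative that kept the gene, as did 7 of the 10 knockout calls, 2 of the 7 differences between responses, 12 of the 19 calls between genotypes after bleomycin and 0 of 1 after saline. The filter on low values left out Col17a1 and Col24a1, with means of 4.48 and 3.03 over all arrays. Their wild type calls, and that of Col24a1 between genotypes after bleomycin, count as kept here without having been put to that filter. The causes of the lost calls were not tested. The 7 wild type calls lost at least once were those of Col11a1, Col14a1, Col19a1, Col23a1, Col4a5, Col4a6 and Col8a2, and the 3 knockout calls those of Col1a2, Col4a5 and Col6a1. Both other scalings moved the median of all genes by under 0.1 on the log2 scale. Low levels limit what could be seen for the 10 dim chains.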

Other observations

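Serpinh1, the collagen chaperone, was chosen after its values were seen, beside those of Col3a1. It rose by 0.77 ± 0.08 (adjusted p = 0.000601) on the log2 scale in knockout lungs and by 0.66 ± 0.08 (adjusted p = 9.75e-05) in wild type lungs (± SE), and after saline it was lower in knockout lungs (-0.55 ± 0.08, adjusted p = 0.0123). Its mean levels were 11.1 in knockout bleomycin lungs, 10.3 in knockout saline lungs, 11.5 in wild type bleomycin lungs and 10.9 in wild type saline lungs.

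Of the 21 chains higher in wild type lungs, 17 had a promoter entry. CCAAT was found in 52.9% of the 17, a GC box in 64.7%, CAGAC in 47.1% and TATAA in 5.88%, and no test was made because the list was chosen on these arrays. Of 7 neighbouring pairs of chain genes, 6 had wild type log2 changes of the same sign. These were Col3a1 and Col5a2 (1.09 and 2.40), Col4a1 and Col4a2 (1.02 and 1.08), Col4a3 and Col4a4 (0.29 and 0.28), Col6a1 and Col6a2 (0.48 and 0.58), Col9a1 and Col19a1 (-0.26 and -0.26), and Col6a4 and Col6a5 (-0.02 and -0.02). Col4a5 and Col4a6 changed by 0.47 and -0.66. The wild type changes of Col6a4 and Col6a5 were smaller than their SE, so their sign says little. In knockout lungs the signs were opposite for Col4a5 and Col4a6 (0.67 and -0.18) and for Col9a1 and Col19a1 (0.23 and -0.03). Several of these changes did not pass.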
